A study of Homo sapiens with 18 samples.

Results

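The zinc-finger gene clusters of human chromosome 19 were examined through the ATAC-seq peaks that fell in 4 windows of the chromosome. On hg19 the windows were chr19:19800000-24400000 on the short arm, here the 19p window, and chr19:34900000-38300000, the first window of the long arm. They were followed by chr19:44300000-44950000, the second 19q window, and chr19:52300000-59128983, the distal 19q window, which runs to the end of the chromosome. A peak was counted in a window when its summit lay there, and 0 peaks reached across a window edge. Within the windows, peaks were taken by position alone, whatever their height or width. Of 781454 peaks on chromosomes 1 to 22 and X in 18 lists, 5851 lay in the windows and 18934 lay on the rest of chromosome 19, which served as comparison. The windows covered 15.5 Mb, or 26.2% of the chromosome.

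ATAC-seq marks accessible DNA, because a transposase inserts sequencing adapters where chromatin is open. Kelly and BE2C, from which the libraries came, are established cell lines of human neuroblastoma, and the series title places the study in neuroblastoma with MYCN amplification. Cells of each line carried a lentivirus with a short hairpin RNA against AHR, named shAhR-1 or shAhR-2, or the empty vector pLKO, and each of the 6 groups held 3 libraries. AHR encodes the aryl hydrocarbon receptor, which enters the nucleus and activates transcription when a ligand binds it. The peak lists hold no expression values, so the level of AHR in the hairpin cells was not checked here, and no marker of the cell type could be read from peaks without gene names. The labels call the libraries triplicates and do not say that they were separate cultures or infections, so a p-value here reflects no more than the variation among them, part or all of which may be technical.

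Zinc-finger genes of the KRAB class form tandem arrays on chromosome 19 that grew by repeated gene duplication. Their proteins bind DNA through rows of C2H2 fingers, and many bind transposable elements and recruit the corepressor TRIM28 through the KRAB domain, which leads to H3K9 trimethylation by SETDB1. The bodies of the zinc-finger genes often carry this same mark themselves, while their promoters can remain open. In the RefSeq annotation of GRCh38.p14, 255 of the 538 protein-coding genes named ZNF or ZFP and a number lie on chromosome 19, among its 1451 protein-coding genes. The longest unbroken runs of such genes are ZNF737 to ZNF681 with 27 genes, ZNF627 to ZNF791 and ZNF565 to ZNF793 with 24 each, and ZNF283 to ZNF180 with 20. The run from ZNF627 to ZNF791 lies on the short arm outside the windows, so the rest of the chromosome is not free of zinc-finger genes. An hg19 annotation was not used here, and no peak is assigned to a gene.

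The lists differed in length, from 9204 to 81637 peaks on chromosomes 1 to 22 and X, and read totals were not used here. The 6 shAhR-2 lists were the longest of their lines, with 60457 to 65740 peaks in Kelly and 75798 to 81637 in BE2C, against 19984 to 34848 and 34343 to 44397 in pLKO. Replicate 1 of Kelly shAhR-1 stood apart with the shortest list. A lowest local background per library was solved from the fold and p-value of its peaks, as a rough guide to sequencing depth. It was 2.56 to 2.91 overlapping reads in Kelly shAhR-2 and 3.40 to 4.42 in BE2C shAhR-2, against 1.26 to 1.92 and 1.495 to 1.86 in pLKO, and 0.601 in replicate 1 of Kelly shAhR-1. List length and background thus moved with every shAhR-2 difference below, and their part in those differences was not tested.

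Across the 18 libraries the windows held between 4.33 and 28.9 peaks per Mb, with a median of 20.6, where the rest of chromosome 19 held between 4.17 and 38.2 with a median of 23.4. The 4 windows were not alike. The median density over libraries was 11.3 peaks per Mb in the 19p window and 24.1, 28.5 and 25.1 in the first, second and distal 19q windows. The 19p window was thus the sparsest. Merged over all 18 lists, regions of the windows lay a median of 17.04 kb apart, against 10.1 kb on the rest of the chromosome. Peaks in the windows had a higher median fold enrichment over local background, a value the authors' caller gave each peak, than those on the rest of the chromosome in 18 of 18 libraries. It ranged from 5.35 to 8.71 over libraries, against 4.43 to 6.71 on the rest of chromosome 19. The median peak of the windows stood between percentile 43.1 and 83.2 of its list by p-value, with 64.7 in the middle of the 18 libraries, and the median peak of the rest between 40.5 and 65.6, with 55.6 in the middle. The lowest were those of the shortest list, where the median fold of the windows was also below that of the whole list, at 5.35 against 5.46.

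The few peaks of the 19p window were the strongest of the 4 windows in pLKO cells. In BE2C pLKO their median fold was 12.5 ± 0.610, against 7.51 ± 1.01 in the first, 6.96 ± 1.67 in the second and 7.46 ± 0.647 in the distal 19q window (SD, n = 3). In Kelly pLKO the same medians were 10.7 ± 2.71, 7.55 ± 1.82, 6.85 ± 1.20 and 6.80 ± 1.47 (SD, n = 3). The order was different with shAhR-2, where the 19p window had a median fold of 6.31 ± 1.57 in BE2C and the second 19q window 9.68 ± 0.752 (SD, n = 3). With shAhR-2 the 19p window also held more peaks, 84 to 97 against 49 to 55 in BE2C pLKO and 60 to 77 against 41 to 47 in Kelly pLKO, so its median there was taken over a longer list. These levels are given as a description, without a test.

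The first comparison asked whether the number of peaks in the windows differed between each hairpin and the empty vector. Peaks in the windows were more numerous with shAhR-2 in both lines. In Kelly the shAhR-2 libraries had 404, 403 and 435 peaks there, against 312, 227 and 285 in pLKO. In BE2C they had 432, 443 and 447, against 312, 326 and 343 in pLKO. Every shAhR-2 library lay above every pLKO library of its line, and the means were 414 ± 18.2 peaks for Kelly shAhR-2 against 275 ± 43.4 for Kelly pLKO, and 441 ± 7.77 for BE2C shAhR-2 against 327 ± 15.5 for BE2C pLKO (SD, n = 3 each). The ratio of geometric means over both lines was 1.43, and the exact permutation test, two-sided with labels exchanged within a line, gave p = 0.005. That is the smallest p the 400 arrangements allow, and the Benjamini-Hochberg adjusted p was 0.012 over 12 tests of 6 measures and 2 hairpins. Within 1 line the 20 arrangements allow no p under 0.1, which both lines reached.

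With shAhR-1 the number of peaks did not pass the test. Kelly shAhR-1 libraries had 67, 247 and 248 peaks in the windows, and BE2C shAhR-1 libraries had 359, 276 and 285, so that both groups overlapped their pLKO libraries. The ratio over both lines was 0.740 (exact permutation test, p = 0.12, adjusted p = 0.18). The library with 67 peaks was the one with the shortest list, and without it the log2 ratio was −0.12 in place of −0.43 (exact permutation test, adjusted p = 0.405).

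**Figure D1:**
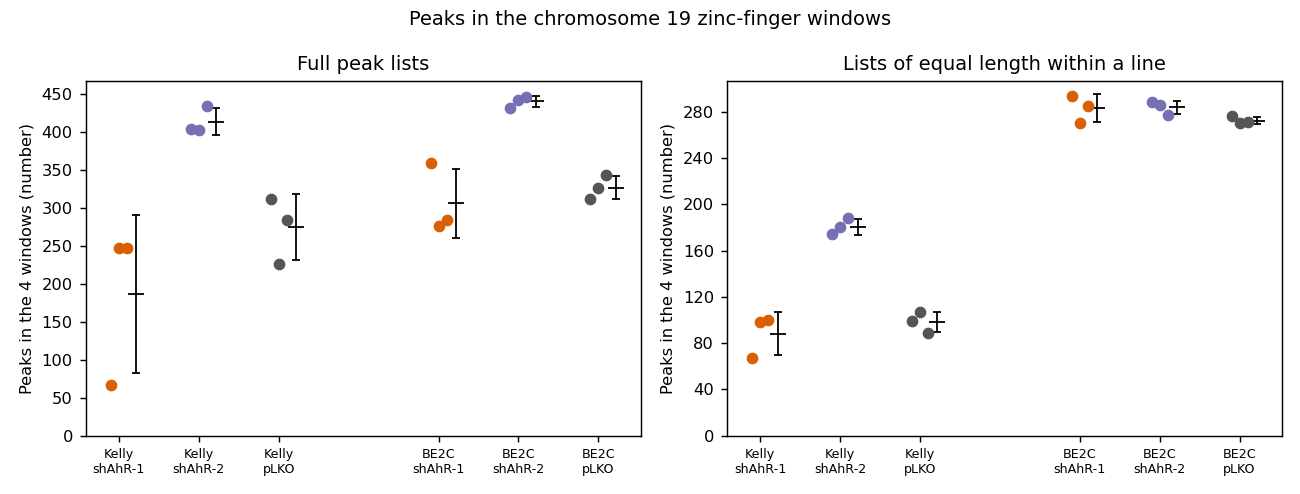
Number of ATAC-seq peaks in the 4 chromosome 19 windows (vertical axis) in each library, for shAhR-1, shAhR-2 and pLKO in Kelly and BE2C. Points are libraries and black bars are mean ± SD of 3 libraries. On the left, with full lists, the shAhR-2 libraries lie between 403 and 447, above all pLKO libraries. On the right, with lists of equal length within a line, Kelly shAhR-2 lies between 174 and 188 and Kelly pLKO between 89 and 107, while the 3 BE2C groups lie between 270 and 294.

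The second comparison set the windows against the rest of the same chromosome, so that a change in list length shared by both cancels. With shAhR-1 the ratio of window peaks to peaks on the rest of chromosome 19 was higher than with pLKO. It was 0.368, 0.356 and 0.383 in Kelly shAhR-1, against 0.319, 0.342 and 0.332 in Kelly pLKO, where the groups did not overlap. In BE2C it was 0.310, 0.346 and 0.355 with shAhR-1, against 0.321, 0.306 and 0.280 with pLKO, where they did. The ratio was 1.11 times that of pLKO over both lines (log2 difference 0.16, exact permutation test, p = 0.01, adjusted p = 0.02). It passed as well without the shortest list (log2 difference 0.16, exact permutation test, adjusted p = 0.03). It did not pass when each list was first shortened to the same number of peaks (log2 difference 0.04, exact permutation test, adjusted p = 0.798) or when the windows were set against all other peaks of chromosomes 1 to 22 and X (0.03, adjusted p = 0.82).

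With shAhR-2 the same ratio was 0.273, 0.357 and 0.294 in Kelly and 0.272, 0.266 and 0.289 in BE2C, against the pLKO values just given. The log2 difference was −0.12 and did not pass (exact permutation test, p = 0.095, adjusted p = 0.163). Kelly shAhR-2 replicate 2, at 0.357, was the only shAhR-2 library above the pLKO range of its line, and without it the log2 difference was −0.18 and passed (exact permutation test, adjusted p = 0.0171). Against all other peaks of the genome the windows held a smaller share with shAhR-2, 0.651 ± 0.0237% of the list against 0.993 ± 0.126% in Kelly pLKO and 0.563 ± 0.0132% against 0.858 ± 0.0743% in BE2C pLKO (SD, n = 3 each). The log2 difference of that ratio was −0.61 (exact permutation test, adjusted p = 0.01).

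Taken 1 window at a time against the rest of the chromosome, 1 of 8 comparisons passed. The 19p window was higher with shAhR-1, at 1.26 times the pLKO ratio (log2 difference 0.34, exact permutation test, p = 0.005, adjusted p = 0.04 over 4 windows and 2 hairpins). Its counts were 17, 45 and 44 peaks in Kelly shAhR-1 against 47, 41 and 43 in pLKO, and 60, 45 and 47 in BE2C shAhR-1 against 49, 55 and 55 in pLKO. The counts themselves overlapped, while 5 of the 6 shAhR-1 libraries had fewer peaks on the rest of chromosome 19 than the median pLKO library of their line. Without the shortest list the log2 difference was 0.25 and did not pass (exact permutation test, adjusted p = 0.08), and in lists of equal length it was 0.01 (adjusted p = 0.96). The distal 19q window was at 0.867 times the pLKO ratio with shAhR-2 (log2 difference −0.21, exact permutation test, p = 0.02, adjusted p = 0.08), which did not pass with all libraries and passed without Kelly shAhR-2 replicate 2 (−0.26, adjusted p = 0.02).

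**Figure D2:**
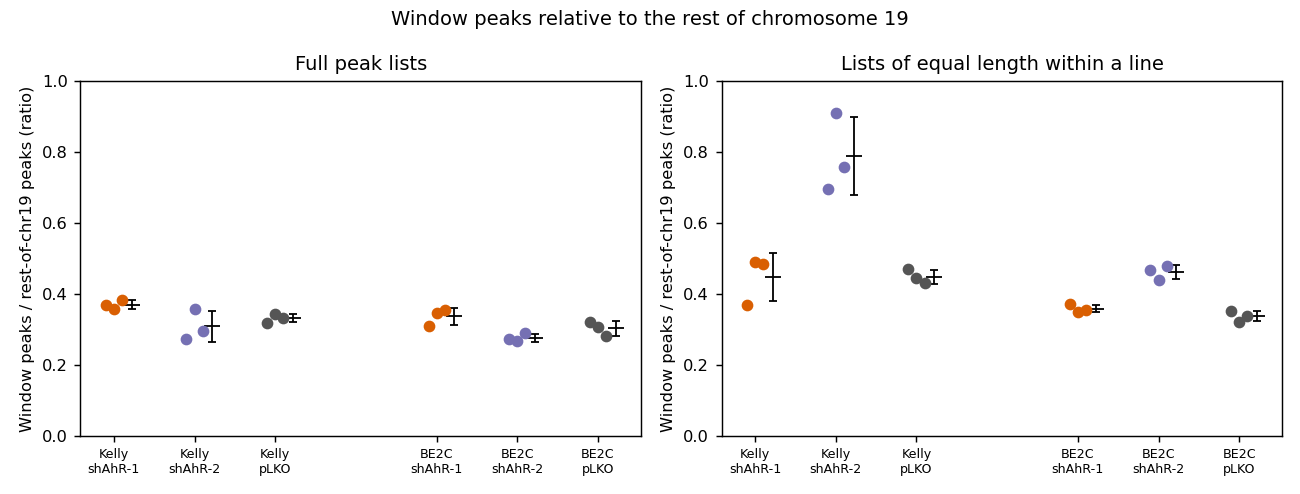
Ratio of peaks in the 4 windows to peaks on the rest of chromosome 19 (vertical axis) in each library, by line and group. Points are libraries and black bars are mean ± SD of 3 libraries. With full lists (left) all libraries lie between 0.266 and 0.383. With lists of equal length (right) the shAhR-2 libraries lie between 0.696 and 0.909 for Kelly and between 0.440 and 0.478 for BE2C, above the pLKO libraries at 0.430 to 0.469 and 0.322 to 0.351.

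To compare peaks of equal rank, only the strongest peaks by p-value were read from each list. Their number was that of the shortest list, 9204 for Kelly and 25660 for BE2C. Among these, more peaks lay in the windows with shAhR-2, and most of the difference was in Kelly. Kelly shAhR-2 libraries had 174, 180 and 188 such peaks in the windows, against 99, 107 and 89 in pLKO, a ratio of 1.84. BE2C shAhR-2 libraries had 288, 286 and 277, against 276, 270 and 271 in pLKO, a ratio of 1.04. The groups did not overlap in either line, and the test over both lines gave a log2 difference of 0.47 (exact permutation test, p = 0.005, adjusted p = 0.012). The difference between the lines, tested by an exact permutation of labels within each line, had p = 0.1 and an adjusted p of 0.54. This test also undoes an effect the lines share, so it could hardly detect a difference in size. BE2C shAhR-1 libraries had 294, 270 and 285 such peaks in the windows, also a ratio of 1.04 to pLKO, and overlapped the pLKO libraries. A ratio of that size in BE2C was thus not particular to shAhR-2. With shAhR-1 the log2 difference over both lines was −0.06 and did not pass (exact permutation test, adjusted p = 0.82).

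On the rest of chromosome 19 the equal-length lists did not show the same increase. Kelly shAhR-2 had 250, 198 and 248 peaks there, against 211, 241 and 207 in pLKO. BE2C shAhR-2 had 615, 650 and 579, against 787, 839 and 802 in pLKO. The ratio of window peaks to the rest was therefore 1.75 times that of pLKO in Kelly and 1.37 times in BE2C (log2 difference over both lines 0.63, exact permutation test, p = 0.005, adjusted p = 0.012). In BE2C this came with fewer peaks on the rest of the chromosome and nearly the same number in the windows. The direction was opposite to that in full lists, where the log2 difference was −0.12 and did not pass.

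The size of this difference depended on how far down the lists it was read. Without Kelly shAhR-1 replicate 1 the Kelly lists could be compared at 19984 peaks, and the windows then held 287, 274 and 286 with shAhR-2, against 245, 227 and 232 with pLKO, a ratio of 1.20. For the number in the windows the log2 difference over both lines was 0.16, which still passed (exact permutation test, adjusted p = 0.012). At 19984 peaks the Kelly ratio of window peaks to the rest was 1.24 times that of pLKO. Read at 9204 peaks in BE2C too, an alternative added after the data were seen, the windows held 125, 118 and 123 for shAhR-2 and 136, 134 and 142 for shAhR-1, against 105, 102 and 105 with pLKO. The rest of chromosome 19 then held 88, 97 and 83 for shAhR-2 and 269, 267 and 300 for shAhR-1, against 275, 272 and 273 with pLKO. When the strongest peaks were chosen by fold in place of p-value, also an added alternative, Kelly shAhR-2 had 195, 197 and 194 against 134, 122 and 120 in pLKO, but BE2C shAhR-2 had 264, 269 and 266 against 275, 274 and 272. The lines then pointed in opposite directions and the test over both did not pass (log2 difference 0.30, exact permutation test, adjusted p = 0.171).

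Within Kelly the 4 windows behaved differently in the lists of 9204 peaks. The 19p window held 31, 33 and 33 peaks with shAhR-2 and 34, 29 and 32 with pLKO, so its number of strong peaks was nearly the same. The first 19q window held 45, 47 and 48 with shAhR-2, against 25, 26 and 27 with pLKO. The second 19q window held 13, 14 and 13 with shAhR-2, against 0, 4 and 2 with pLKO. The distal 19q window held 85, 86 and 94 with shAhR-2, against 40, 48 and 28 with pLKO. All 3 windows of the long arm separated the groups, and the 19p window did not. Kelly shAhR-1 was near pLKO in each of the windows, with 17, 33 and 34 peaks in the 19p window, 12, 27 and 21 in the first, 3, 2 and 4 in the second and 35, 36 and 41 in the distal 19q window, the lowest 19p and first 19q values being those of the shortest list.

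In BE2C at 25660 peaks the 19p window held 44, 42 and 43 peaks with shAhR-2, against 42, 45 and 43 with pLKO. The second 19q window held 21, 20 and 18 with shAhR-2, against 16, 11 and 16 with pLKO, and the distal 19q window held 150, 151 and 150 with shAhR-2, against 147, 145 and 140 with pLKO. In the first 19q window the groups overlapped, with 73, 73 and 66 against 71, 69 and 72. BE2C shAhR-1 held 47, 43 and 47 peaks in the 19p window and 72, 69 and 73 in the first 19q window. It held 19, 18 and 17 in the second and 156, 140 and 148 in the distal 19q window. In the second 19q window both hairpins thus lay above all pLKO libraries of BE2C at this length. In full lists shAhR-1 had 21, 18 and 17 peaks there and overlapped pLKO with 18, 16 and 19, while shAhR-2 had 22, 22 and 21. At 9204 peaks shAhR-1 had 0, 0 and 2 and shAhR-2 had 2, 3 and 2, both overlapping pLKO with 1, 2 and 1. Relative to the rest of chromosome 19 at equal length, the first and distal 19q windows passed the test with shAhR-2 (log2 differences 0.58 and 0.81, exact permutation test, adjusted p = 0.02 for both). The second 19q window could not be tested this way because 1 Kelly pLKO list had 0 peaks in it.

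**Figure D3:**
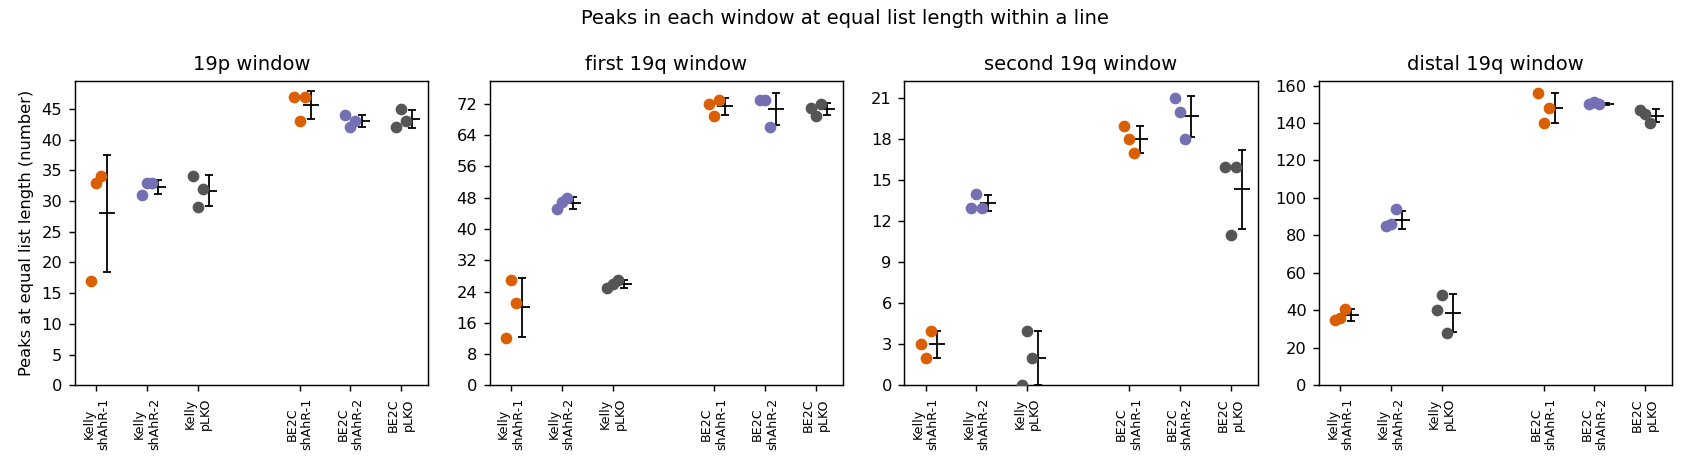
Peaks in each of the 4 windows (vertical axis, own scale per panel) in lists of equal length within a line, 9204 peaks in Kelly and 25660 in BE2C. Points are libraries and black bars are mean ± SD of 3 libraries. In Kelly the 19p window holds 31 to 33 peaks with shAhR-2 and 29 to 34 with pLKO, while the distal 19q window holds 85 to 94 with shAhR-2 and 28 to 48 with pLKO.

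Peaks in the windows were also wider with shAhR-2. Their median width was 800, 752 and 734 bp in Kelly shAhR-2, against 620, 411 and 577 bp in pLKO. BE2C shAhR-2 libraries had 820, 836 and 858 bp, against 536, 581 and 676 bp with pLKO. No shAhR-2 library overlapped the pLKO libraries of its line, and the widths were 1.43 times those of pLKO over both lines (log2 difference 0.51, exact permutation test, p = 0.005, adjusted p = 0.012). The widths with shAhR-1 were 294, 454 and 440 bp in Kelly and 710, 694 and 533 bp in BE2C, overlapping pLKO in both lines (log2 difference −0.17, exact permutation test, adjusted p = 0.507). Sequence covered by peaks in the windows came to 308 ± 9.84 kb for Kelly shAhR-2 against 160 ± 47.1 kb for Kelly pLKO, and to 358 ± 12.5 kb for BE2C shAhR-2 against 202 ± 31.4 kb for BE2C pLKO (SD, n = 3 each).

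On the rest of chromosome 19 the difference in median width was smaller. Kelly shAhR-2 libraries had 581 ± 23.6 bp there and Kelly pLKO libraries 505 ± 77.7 bp, while BE2C shAhR-2 libraries had 631 ± 31.8 bp and BE2C pLKO libraries 532 ± 57.0 bp (SD, n = 3 each). The ratio of the window width to that of the rest came to 1.31 ± 0.0569 for Kelly shAhR-2, against 1.05 ± 0.0653 for Kelly pLKO. It came to 1.33 ± 0.0368 for BE2C shAhR-2, against 1.12 ± 0.0197 for BE2C pLKO (SD, n = 3 each). The log2 difference of this ratio over both lines was 0.28 (exact permutation test, p = 0.005, adjusted p = 0.012). With shAhR-1 it was 0.03 (exact permutation test, adjusted p = 0.54).

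The excess width over the rest of the chromosome depended on which peaks were compared. In lists of equal length the median width in Kelly was 903 ± 24.3 bp in the windows and 905 ± 22.1 bp on the rest with shAhR-2, while pLKO libraries had 676 ± 120 bp and 678 ± 119 bp (SD, n = 3 each). In BE2C the windows were still the wider, with 972 ± 34.9 bp against 903 ± 27.6 bp on the rest for shAhR-2, and 646 ± 77.6 bp against 624 ± 84.3 bp for pLKO (SD, n = 3 each). The log2 difference of the ratio over both lines was then 0.03 and did not pass (exact permutation test, adjusted p = 0.249), although the width in the windows itself was still higher with shAhR-2. At regions with a peak in all 9 full lists of a line, an alternative added after the data were seen, it was 0.10 (exact permutation test, adjusted p = 0.05), and without the distal window it was 0.14 (adjusted p = 0.05), neither of which lies under the threshold of 0.05. At the regions in all 9 lists the ratio was 1.08 ± 0.0324 for BE2C shAhR-2 against 0.961 ± 0.0129 for BE2C pLKO, and 1.003 ± 0.0284 for Kelly shAhR-2 against 0.978 ± 0.0250 for Kelly pLKO (SD, n = 3 each).

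**Figure D4:**
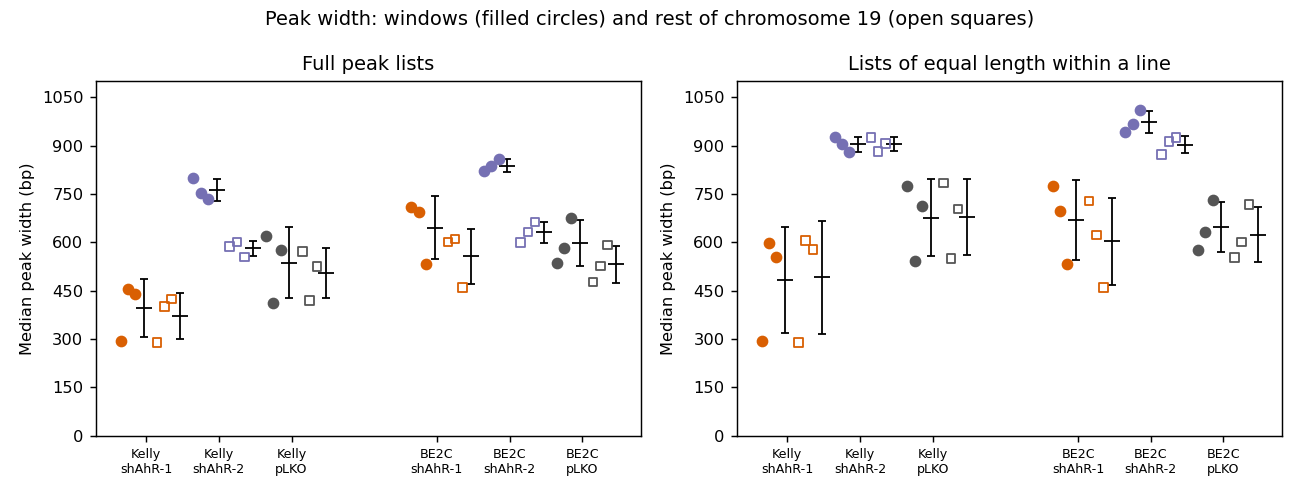
Median peak width in bp (vertical axis) in each library, for peaks in the 4 windows (filled circles) and on the rest of chromosome 19 (open squares). Black bars are mean ± SD of 3 libraries. With full lists (left) the windows stand above the rest in shAhR-2, at 734 to 800 bp against 555 to 601 bp in Kelly. With lists of equal length (right) Kelly shAhR-2 has 879 to 928 bp in the windows and 882 to 926 bp on the rest, and BE2C shAhR-2 has 941 to 1010 bp in the windows and 872 to 925 bp on the rest.

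Presence was read from regions made by merging the equal-length lists of a line, 232 regions in the windows in Kelly and 339 in BE2C. A Kelly shAhR-2 library had a peak at 75, 77.6 and 81.0% of the window regions, against 42.7, 46.1 and 38.4% in pLKO. A BE2C shAhR-2 library had one at 84.4, 84.1 and 81.7%, against 79.9, 78.5 and 79.4% in pLKO. These shares follow the peak numbers at equal length given above, over regions merged from the same lists. The test of presence thus largely repeats the test of those numbers and is not separate support. The groups did not overlap, and the mean difference over both lines was 19.8 percentage points (exact permutation test, p = 0.005, adjusted p = 0.012). It was 9.50 points without Kelly shAhR-1 replicate 1, which also passed. With shAhR-1 the difference was −0.77 points and did not pass (exact permutation test, p = 0.82, adjusted p = 0.82). Over all regions of the genome the shares were nearly equal by construction, 54.9 ± 0.0350% for Kelly shAhR-2 against 54.7 ± 0.190% for Kelly pLKO (SD, n = 3 each).

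A region was called gained when all 3 libraries of a hairpin had a peak there and no pLKO library did at equal list length, and lost in the reverse case. With 3 libraries against 3 no single region can reach a p under 0.1, so the counts are given beside the same calls over all regions of the line. In Kelly with shAhR-2, 36 of 232 window regions were gained, or 15.5%, where 2.84% of all 16749 regions and 3.86% of those on the rest of chromosome 19 were gained. There were 0 lost window regions, where 2.90% of all regions were lost. Chromosome 19 as a whole had 7.89% of its regions gained, and the other 22 chromosomes had between 0% and 4.04%. These shares rested on the list length. Without Kelly shAhR-1 replicate 1, at 19984 peaks, 14 of 325 window regions were gained, or 4.31%, close to the 4.09% of all regions. With full lists 43 of 504 were gained, or 8.53%, below the 12.1% of all regions. With the strongest peaks chosen by fold, 31 of 246 were gained, or 12.6%, against 3.73% of all.

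The other comparisons in Kelly changed few window regions. With shAhR-1, 2 were gained and 2 lost, where 1.33% of all regions were gained and 1.61% lost. With both hairpins, which required a peak in all 6 hairpin libraries or in none of them, 2 were gained and 0 lost, where 0.233% and 0.519% of all regions were. In BE2C with shAhR-2, 9 of 339 window regions were gained, or 2.65%, and 5 were lost, or 1.47%, where 3.59% of all 41417 regions were gained and 3.20% lost. On the rest of chromosome 19 the BE2C shares with shAhR-2 were 0.633% gained and 6.96% lost. Chromosome 19 as a whole had 1.11% of its BE2C regions gained with shAhR-2 and 5.67% lost. The other 22 chromosomes had between 0.529% and 4.61% gained, so chromosome 19 did not stand out for gains as it did in Kelly. With shAhR-1 in BE2C, 3 window regions were gained and 2 lost, where 1.37% and 1.69% of all regions were. With both hairpins in BE2C, 2 were gained and 1 lost, where 0.461% and 1.00% of all regions were. Both hairpins of a line were set against the same pLKO libraries.

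The 36 gained regions of Kelly were spread over the long arm. The second 19q window had 7 of its 19 regions gained, the distal window 21 of 119 and the first 19q window 8 of 58, while the 19p window had 0 of 36. All 36 had a peak below the length limit in the full list of at least 1 pLKO library, and 23 had one in all 3. In the other line, 33 had a peak in all 3 pLKO full lists and 31 had one in all 9 full lists of BE2C. By fold, every shAhR-2 library was above every pLKO peak in the full lists at 20 of the 36 regions and the groups overlapped at 16, and at 6 of these a pLKO library had the highest fold. The regions were chosen on these same libraries, so the counts are a description.

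The 2 Kelly regions gained with both hairpins came first by the order used for naming. At chr19:44668718-44669857 in the second 19q window the fold was 9.67, 9.34 and 11.4 for shAhR-2 and 5.52, 8.28 and 8.23 for shAhR-1, against 11.6, 5.24 and 6.80 with pLKO in the full lists. The folds overlapped between the groups, and the call followed from the length limit of 9204 peaks. That limit is the whole list of shAhR-1 replicate 1, so any peak of that library counted, whatever its strength. The pLKO replicate 1 peak, with the highest fold, lay below the limit in its own list. For shAhR-1 replicate 1 a stronger peak than in pLKO was thus not shown by the call, at this region or the next. At chr19:53465657-53466750 in the distal window the fold was 11.8, 10.9 and 12.8 for shAhR-2 and 4.29, 7.35 and 8.23 for shAhR-1, against 10.9, 5.14 and 8.34 with pLKO.

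Ordered by the lowest shAhR-2 fold, the Kelly gains were led by chr19:58144162-58145122, with folds of 13.2, 12.4 and 13.1 with shAhR-2, against 10.8, 5.82 and 9.30 with pLKO. It was followed by chr19:58038493-58039155 with 12.6, 12.1 and 13.9, against 9.74, 6.17 and 8.86 with pLKO. At chr19:58011102-58011862 the folds were 13.4, 12.04 and 11.99 with shAhR-2, against 9.40 and 10.6 in pLKO replicates 1 and 3, and pLKO replicate 2 had no peak. All 3 lie within the distal window and are among the 20 regions whose folds did not overlap. The 2 Kelly regions lost with shAhR-1 lay in the first 19q window. At chr19:37063739-37064742 the folds were 6.96 and 5.53 in shAhR-1 replicates 2 and 3 and replicate 1 had no peak, against 12.5, 6.83 and 10.5 with pLKO. At chr19:36266027-36266957 the folds were 6.38 and 5.97 in shAhR-1 replicates 2 and 3, with no peak in replicate 1, against 10.7, 5.34 and 8.98 with pLKO.

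In BE2C the gains with shAhR-2 were led, among regions changed with both hairpins, by chr19:52956458-52957377 in the distal window. Its folds were 8.38, 9.60 and 8.85 for shAhR-2 and 9.37, 5.38 and 4.56 for shAhR-1, against a single pLKO peak of 5.95 in replicate 3. The second such region, chr19:53868461-53869402, had folds of 8.10, 7.77 and 7.20 for shAhR-2 and 7.22, 5.64 and 4.04 for shAhR-1, against 4.75 and 4.90 in pLKO replicates 1 and 3. Outside these, chr19:52900611-52901657 had folds of 12.9, 10.5 and 9.50 with shAhR-2 and no peak in any full pLKO list, the only 1 of the 36 and 9 regions gained with shAhR-2 for which that held. Of the 9 BE2C gains, 8 lay in the distal window. The 1 region lost with both hairpins, chr19:55685087-55685690, had folds of 4.21, 4.93 and 4.51 with shAhR-2 and 3.63 in shAhR-1 replicate 1, against 4.33, 4.79 and 7.66 with pLKO. The 5 regions lost with shAhR-2 each had a peak in all 3 full shAhR-2 lists, below the length limit.

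Many sites of the windows were shared by nearly all libraries. Merged over the 18 full lists the windows held 629 regions, and 58 (9.22%) had a peak in each of the 18 libraries and 167 (26.6%) in 17 or 18. On the rest of chromosome 19, 147 of 2406 regions (6.11%) had one in all 18 and 415 (17.2%) in 17 or 18. At the other end, 137 window regions (21.8%) were seen in 1 library only, and 556 (23.1%) on the rest. The regions seen in 17 or 18 libraries had a median width of 1170 bp in the windows and 1150 bp on the rest, while those seen in 1 library had 265 and 257 bp. The 19p window had the largest share of regions from a single library, 72 of 176 or 40.9%, and the second 19q window had 0 of 23. At equal list length in BE2C, 62.8% of window regions had a peak in all 9 libraries, against 39.8% on the rest of chromosome 19 and 36.5% of all regions. In Kelly 13.8% of window regions did, against 11.8% on the rest of chromosome 19 and 23.8% of all regions. At these lengths, 9204 peaks in Kelly and 25660 in BE2C, the Kelly windows were less shared than all regions and the BE2C windows more. The shortest list, replicate 1 of Kelly shAhR-1, had a peak at 28.4% of window regions and 53.6% of all regions. That list limits how many Kelly regions can be in all 9, so the contrast was not read as a difference between the lines.

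**Figure D5:**
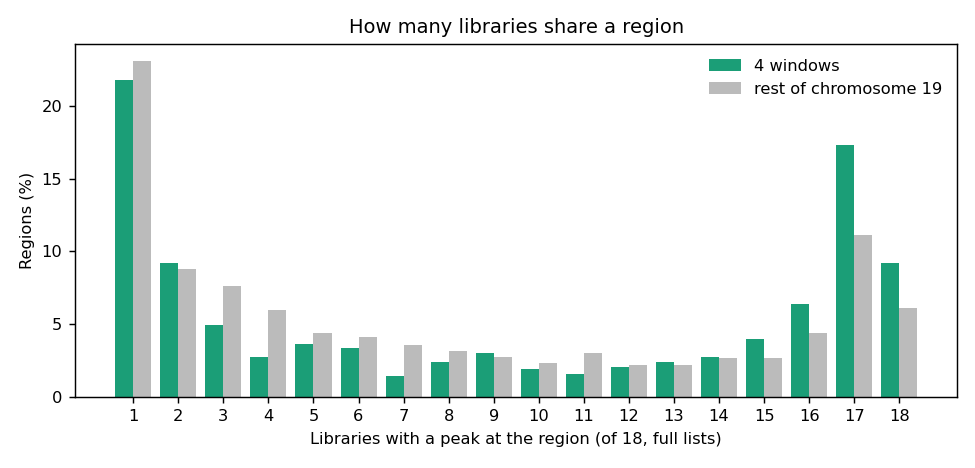
Share of merged regions (vertical axis, %) by the number of libraries with a peak there (horizontal axis, 1 to 18, full lists), for the 4 windows (green) and the rest of chromosome 19 (grey). Both distributions are highest at 1 library, 21.8% for the windows and 23.1% for the rest, and the windows have the larger share at 18 libraries, 9.22% against 6.11%.

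The strongest of the 58 shared regions, ordered by their lowest fold in any library, came mostly from the sparse 19p window, which held 7 of the first 10. At chr19:22018295-22019515 the fold was 9.97, 9.64 and 12.5 in Kelly shAhR-2, against 13.2, 7.95 and 14.8 in Kelly pLKO. In BE2C it was 11.7, 11.3 and 9.84 with shAhR-2, against 15.4, 14.1 and 17.5 with pLKO, so here the BE2C pLKO folds lay above those of shAhR-2. At chr19:24183656-24185019, close to the centromeric edge of the 19p window, the fold was 11.6, 10.2 and 12.6 in Kelly shAhR-2, against 12.6, 11.3 and 13.04 in Kelly pLKO, and the peak was 656 to 658 bp wide in those shAhR-2 libraries. In Kelly shAhR-1 the fold there was 13.7, 16.8 and 13.8. Peaks covered 656 bp of it in the shortest list, where they covered 221 bp of chr19:22018295-22019515, and 658 bp in the median library. Regions prone to false peaks were not left out here, and whether this peak marks open chromatin was not tested. The other members of the first 10 outside 19p were chr19:54023691-54024889 and chr19:53030224-53031520 in the distal window and chr19:37742256-37743169 in the first 19q window. Background was higher in the shAhR-2 libraries, as given above, and a lower fold there was not read as less accessible.

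The widest region shared by all 18 libraries was chr19:54693099-54695371 in the distal window, where peaks covered 1979 bp in the median library. Its folds were low for its width, 4.32, 4.31 and 4.84 in Kelly shAhR-2, against 6.61, 4.62 and 6.59 in Kelly pLKO. The bases covered were 2171, 2032 and 1979 in Kelly shAhR-2, against 2035, 1908 and 1965 in Kelly pLKO, and 172 in replicate 1 of Kelly shAhR-1. The next widest were chr19:36359188-36361328, chr19:37262226-37264362 and chr19:38145440-38147383 in the first 19q window and chr19:56631435-56633282 in the distal window. At chr19:37262226-37264362 the width differed by line, with 2058, 2034 and 2006 bp covered in BE2C shAhR-2 and 918, 1016 and 958 bp in Kelly shAhR-2.

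Regions confined to BE2C or to Kelly were counted by an all-or-none rule. Of 629 window regions, 6 had a peak in all 9 full lists of BE2C and in none of Kelly, and 0 showed the reverse. On the rest of chromosome 19 the numbers were 17 and 0 of 2406 regions. A looser rule let a region be missing from a single list of its own line. It gave 9 and 0 in the windows, and 31 and 2 on the rest. By the all-or-none rule a Kelly-only region had to be in the shortest list as well. How much the lines differ was not tested. The BE2C lists were longer on average, which makes a BE2C-only region the easier kind to find. The strongest of the 6 window regions was chr19:20188591-20189839 in the 19p window, with no peak in any Kelly library. Its folds were 10.3, 10.6 and 9.86 in shAhR-2 and 12.4, 7.36 and 7.18 in shAhR-1, against 10.3, 11.8 and 11.99 in pLKO. The second, chr19:52390688-52391667, had folds of 12.4, 11.4 and 10.3 in BE2C shAhR-2, against 6.21, 6.41 and 9.45 in BE2C pLKO. It was followed by chr19:53038506-53039951, with folds of 11.0, 8.48 and 7.98 in BE2C shAhR-2, against 7.11, 9.003 and 9.82 in BE2C pLKO. These regions were chosen for a peak in every BE2C library and in no Kelly library, so that they separate the lines is not a result. The folds of the shAhR-2 and pLKO libraries of BE2C overlapped at chr19:20188591-20189839 and chr19:53038506-53039951.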

How the data were processed

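Per the labels' protocols, 50K cells a library went into a transposition of 30 min and the DNA went through 10 PCR cycles. The submitters' processing notes name hg19 as the build and list MACS2 2.1.0, BWA 0.7.17, Trimmomatic 0.33, deepTools 3.1.3 and CASAVA 1.8.2. How they were set, and whether duplicate or mitochondrial reads were removed or read ends shifted, is not given in the sources used here.

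The authors deposited 1 peak list per library. Each peak carries an integer score, a fold enrichment (linear ratio), a −log10 p-value and a −log10 q-value, all as deposited by the authors. Every list ended at a q-value of 0.05 or below, and absence from a list means that no peak passed. Depth is unknown beyond the background solved from fold and p.

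Only chromosomes 1 to 22 and X were used, which left out 0.197% to 0.830% of a list. The windows and lists were chosen with earlier results of these data known. Each hairpin was compared with pLKO by an exact permutation test, two-sided, with labels exchanged inside each line (400 arrangements), with Benjamini-Hochberg adjustment. For equal lengths, lists were shortened to the strongest peaks by −log10 p and merged into regions at an overlap of at least 1 bp. Regions named are up to 5 gained and 5 lost per line and hairpin by lowest fold, those changed with both hairpins first, with 10 strongest and 5 widest shared regions and 3 specific to a line, and not every one is given in the text. Planned counts by gene, pathway and cell type marker were not made, since an hg19 annotation was not used here. Functions were tested on simulated data. Tools were Python 3.11.15, numpy 2.4.6, scipy 1.17.1, pandas 2.3.3 and matplotlib 3.10.9.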

Additional observations from a re-analysis of the deposited data

How the results depend on the processing

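Of the 5 measures that passed with shAhR-2, peak number and median width passed under every alternative run except the replicate block. Presence, also among the 5, largely repeats the number at equal length. Same-numbered libraries did not deviate together: the correlations lay between −0.0557 and 0.0289, and 0 pairs were above 0.1. With labels exchanged only within a replicate number (replicate block, 64 arrangements, smallest p 0.03125), no measure passed. After adjustment, that smallest p stays above the threshold of 0.05 unless tests of both hairpins reach it. A difference limited to a single hairpin could thus not pass, and the replicate block cannot decide about it. The adjusted exact p was 0.075 for the shAhR-2 differences of 0.52 (peak number), 0.51 (width), 0.28 (width ratio), 0.47 (number at equal length) and 19.8 points (presence). It was 0.125 for the shAhR-1 ratio to the rest of chromosome 19 (0.16) and 0.167 for the 19p window with shAhR-1 (0.34).

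Values below are log2 differences unless stated, and the cause of each change was not tested. With −log10 q of at least 5, the shAhR-1 ratio was 0.13 and the 19p window 0.42, and neither passed. The shAhR-1 number at equal length was 0.0886 and presence 4.26 points, the 19p window with shAhR-2 −0.22 and the second 19q window with shAhR-2 0.0343, all of opposite sign to the main values and none passing. The width ratio with shAhR-2 was 0.14 without the distal window, 0.0287 at equal length and 0.10 at shared regions, none under the threshold. Against the rest of the genome the number ratio was 0.0326 for shAhR-1 and −0.61 for shAhR-2, and the width ratio for shAhR-1 was −0.0179. At equal length the number ratio was 0.0386 for shAhR-1 and 0.63 for shAhR-2. The 19p window with shAhR-1 was then 0.0148 and the first 19q window −0.12, while with shAhR-2 the first was 0.58 and the distal 0.81. The second 19q window had 0 peaks in 1 library and gave no value. Among alternatives added after the data were seen, with 9204 peaks in both lines the shAhR-1 number was 0.11 and presence 6.57 points. With the strongest by fold, the shAhR-2 number was 0.30 and presence 13.5 points, and neither passed.

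Counts of gained and lost window regions moved as follows. When a peak had to cover 50% of its region or more, shAhR-1 in Kelly gave 0 gained and 4 lost regions, with 0 gained with both hairpins, and BE2C had 39 gained and 0 lost with shAhR-2, 0 lost with shAhR-1 and 0 lost with both. Full lists gave 0 gained and 7 lost with shAhR-1 and 0 gained with both in Kelly, 38 gained and 0 lost with shAhR-2 in BE2C, and 0 for shAhR-1 and for both hairpins in BE2C in either direction. At −log10 q of at least 5 the full lists gave 0 gained and 10 lost with shAhR-1 and 0 gained with both in Kelly, and in BE2C 39 gained and 0 lost with shAhR-2, 0 gained and 1 lost with shAhR-1, and 0 with both. With 2 of 3 libraries, Kelly had 5 gained and 7 lost with shAhR-1, 59 and 1 with shAhR-2 and 4 gained with both, and BE2C had 9, 14 and 6 gained with shAhR-1, shAhR-2 and both. At 9204 peaks BE2C had 8 gained and 0 lost with shAhR-1, 16 gained with shAhR-2, and 4 gained and 0 lost with both. By fold, Kelly had 0 gained and 4 lost with shAhR-1, 2 lost with shAhR-2 and 0 gained with both, and BE2C 0 gained and 1 lost with shAhR-1, 18 lost with shAhR-2 and 0 gained with both. In full lists the BE2C shAhR-2 gains were 7.01% of window regions, against 13.5% of all regions. At 9204 peaks they were 8.51%, against 5.14%. The 18 lost by fold were 5.22%, against 4.87% of all regions. BE2C shAhR-1 gains at 9204 peaks were 4.26%, against 1.33%, and Kelly shAhR-1 losses in full lists 1.39%, against 0.908%. The other counts here stand without that share and were not read as a result about the windows.

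Leaving out 1 library at a time, the shAhR-1 ratio ranged from 0.13 to 0.19 and passed in 8 of 12 cases, and the shAhR-2 ratio from −0.18 to −0.0813. The 19p window ranged from 0.25 to 0.39 with shAhR-1, passing in 4 of 12, and from −0.0152 to 0.17 with shAhR-2, and the distal window with shAhR-2 from −0.26 to −0.17. Presence with shAhR-1 ranged from −2.03 to 0.23 points. Kelly counts ranged from 2 to 6 lost with shAhR-1, 14 to 51 gained and 0 to 2 lost with shAhR-2, and 1 to 3 gained and 0 to 1 lost with both. BE2C counts ranged from 3 to 8 gained and 1 to 5 lost with shAhR-1, 8 to 15 gained and 2 to 8 lost with shAhR-2, and 2 to 5 gained and 1 to 2 lost with both. Apart from the Kelly shAhR-2 gains, these counts stand without the share of all regions and were not read as a result about the windows. The shortest list, of 9204 peaks, set the equal length in Kelly.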
